A study of Mus musculus with 8 samples.

Results

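Hemoglobin and erythroid genes are 8 genes for hemoglobin chains and for other proteins of red blood cells and their precursors. They are the alpha chain genes Hba-a1 and Hba-a2, the beta chain genes Hbb-bs and Hbb-bt, and 4 other red cell genes, Alas2, Slc4a1, Ahsp and Hemgn. They were taken by symbol, and all 8 were found among the 17983 genes of the count and FPKM tables. The list was drawn up for its known function with the diet results of these libraries in view, so the diet differences given here for the members are a description and support nothing further.

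The libraries came from whole brains of male db/db mice, whose leptin receptor mutation leads to obesity and type 2 diabetes. The control group (4 libraries) ate a normal diet and the ketogenic group (4 libraries) a ketogenic diet, which is high in fat and very low in carbohydrate, begun at 9 weeks of age and kept up until 6 months. Both groups carry the db/db genotype, so every comparison is within the diabetic background, and a lean or wild-type group was not analysed here. Strain background, and any flushing of blood from the vessels before sampling, were not found in the sources used.

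Adult hemoglobin is a tetramer of alpha and beta chains, each holding a heme. Mature mouse red cells have no nucleus, but young red cells, the reticulocytes, still carry abundant globin messenger RNA, so brain tissue that holds blood also holds globin RNA. Low globin expression in neurons and glia has also been described. In bulk tissue, a change in the number of cells of a type and a change in RNA per cell cannot be told apart.

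The chain genes stand in near-identical pairs, and the sequences are shown first because they decide how far reads can be given to 1 copy. On GRCm38, GENCODE release M21 places Hba-a1 at chr11:32283511-32284465 and Hba-a2 at chr11:32296489-32297298, both on the plus strand. It places Hbb-bs at chr7:103826534-103828096 and Hbb-bt at chr7:103812524-103813996, both on the minus strand. The coding sequences of Hba-a1 and Hba-a2 are both 429 bases long and differ at 1 base, C381T, counted from 1 at the A of the start codon with the Hba-a1 base first. Those of Hbb-bs and Hbb-bt are both 444 bases long and also differ at 1 base, C417T, with the Hbb-bs base first. The longest stretch with no difference is 380 bases in the alpha pair and 416 bases in the beta pair. The differing base lies in exon 3 of each gene. It is shown in capitals within 60 coding bases from the GENCODE transcripts, 5′ to 3′, at chr11:32284313-32284372 and chr11:32297130-32297189 for the alpha pair and at chr7:103826665-103826724 and chr7:103812656-103812715 for the beta pair.
Hba-a1: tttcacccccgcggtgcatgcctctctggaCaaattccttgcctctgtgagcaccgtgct
Hba-a2: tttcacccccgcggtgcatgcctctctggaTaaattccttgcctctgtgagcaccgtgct
Hbb-bs: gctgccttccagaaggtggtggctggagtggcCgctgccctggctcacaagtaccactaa
Hbb-bt: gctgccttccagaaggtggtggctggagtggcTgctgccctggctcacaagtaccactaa

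No source used here says how the authors' counting treated reads that match both copies. The split between the copies of a pair is therefore uncertain. The sum over a pair does not depend on how shared reads were split, but it would be too low if shared reads were left out. Such a loss could differ between the alpha and beta pairs.

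Windows of 250 bases before the RefSeq start on GRCm38.p6 were found for 6 members (Slc4a1 and Ahsp had none in the table used) and searched on both strands for 4 motifs: GATAAG (a binding motif of GATA factors), CACCC (bound by Klf1 and related factors), CCAAT and TATAA. RefSeq and GENCODE differ on where these genes start. The 150 bases nearest the RefSeq start lie wholly inside the GENCODE gene for Hba-a1, Hbb-bs and Hemgn and partly for Hba-a2, Hbb-bt and Alas2. These are therefore promoter windows by RefSeq only, and their sequence is not printed. Each of the 4 chain windows holds 1 GATAAG match and at least 1 match to each other motif. The Hbb-bt window has 3 matches each to CACCC and CCAAT. The Alas2 window has 3 CACCC matches, 2 TATAA matches and no match to the other motifs. That of Hemgn has 1 TATAA match and no match to the other motifs. The Hba-a1 and Hba-a2 windows are identical over 247 of 250 bases in a row, whereas the longest shared stretch of the beta windows is 14 bases. Of 32851 RefSeq windows of 250 bases, 6.55% hold a GATAAG match and 52.0% hold CACCC. The share is 33.8% for CCAAT and 22.8% for TATAA. These matches describe the letters only.

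Depth was similar in the 8 libraries, with total counts of 34450860 to 40233361. Values below are CPM (counts scaled to library size), adjusted to a common library size with edgeR's TMM factors, unless they are named as FPKM, which also divides by gene length and is used to compare genes with each other. The label of brain held: the neuron markers Snap25 and Syt1 were at 3258 ± 311 and 2268 ± 61.9 CPM in control and 2828 ± 279 and 2160 ± 173 CPM in ketogenic libraries. Across the 14895 genes tested with edgeR's quasi-likelihood test, 6.52% were called at an adjusted p under 0.05, 3.3% higher and 3.22% lower in ketogenic brains. The labels do not say how replicates relate to animals, litters or batches, so p-values measure only the spread between these libraries, which may be technical.

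The hemoglobin chains were higher in every ketogenic library than in any control library when summed. Summed over the 4 chains, control replicates 1 to 4 had 39.1, 27.3, 14.9 and 49.9 CPM. Ketogenic replicates 1 to 4 had 66.4, 81.8, 97.5 and 109 CPM. The means were 32.8 ± 15.1 and 88.7 ± 18.5 CPM (SD, n = 4 each), so that the ketogenic mean was 2.70 times the control mean. Among controls, replicate 4 came nearest to the ketogenic range and replicate 3 lay farthest from it. These sums rest on 533 to 1952 reads per control library and 2566 to 4244 per ketogenic library.

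Hbb-bs, the main adult beta chain gene in this table, carried most of the reads assigned to the chains. It was at 30.0, 19.9, 11.9 and 37.7 CPM in control replicates 1 to 4 and at 51.7, 61.7, 71.0 and 81.1 CPM in ketogenic replicates 1 to 4. Every ketogenic library was above every control library, as for 7.22% of tested genes, beside 6.51% that lay wholly below. Control replicate 3 was the lowest of all 8 libraries. The mean went from 24.9 ± 11.3 to 66.4 ± 12.6 CPM. The log2 change was 1.41 with an SE of 0.23 (edgeR's quasi-likelihood test, adjusted p = 0.00665). It passed the threshold with each library left out in turn, at log2 changes of 1.18 to 1.69.

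Hbb-bt, the second beta copy, had the same groups of high and low libraries at a far lower level. It was at 1.44, 1.64, 0.50 and 2.23 CPM in control and at 3.70, 3.11, 6.05 and 6.15 CPM in ketogenic replicates 1 to 4. The log2 change was 1.70 ± 0.34 (edgeR adjusted p = 0.0132), and the diets did not overlap. Without control replicate 1 it missed the threshold (adjusted p = 0.0586).

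Hba-a1, an adult alpha chain gene, was at 5.18, 4.98, 1.99 and 6.45 CPM in control replicates 1 to 4. In ketogenic replicates 1 to 4 it was at 8.28, 13.3, 16.6 and 17.1 CPM. Again no ketogenic library fell within the control range, and the log2 change was 1.57 ± 0.27 (edgeR adjusted p = 0.00735). Leaving out any single library kept the call.

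Hba-a2, the second alpha copy, was the chain gene that overlapped between the diets. It was at 2.47, 0.72, 0.56 and 3.56 CPM in control and at 2.74, 3.72, 3.89 and 4.51 CPM in ketogenic replicates 1 to 4. Control replicate 4 lay above ketogenic replicate 1. The log2 change was 1.02 ± 0.42 (edgeR adjusted p = 0.145), short of the threshold. It passed without control replicate 4, at 1.58 (adjusted p = 0.0238).

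**Figure D1:**
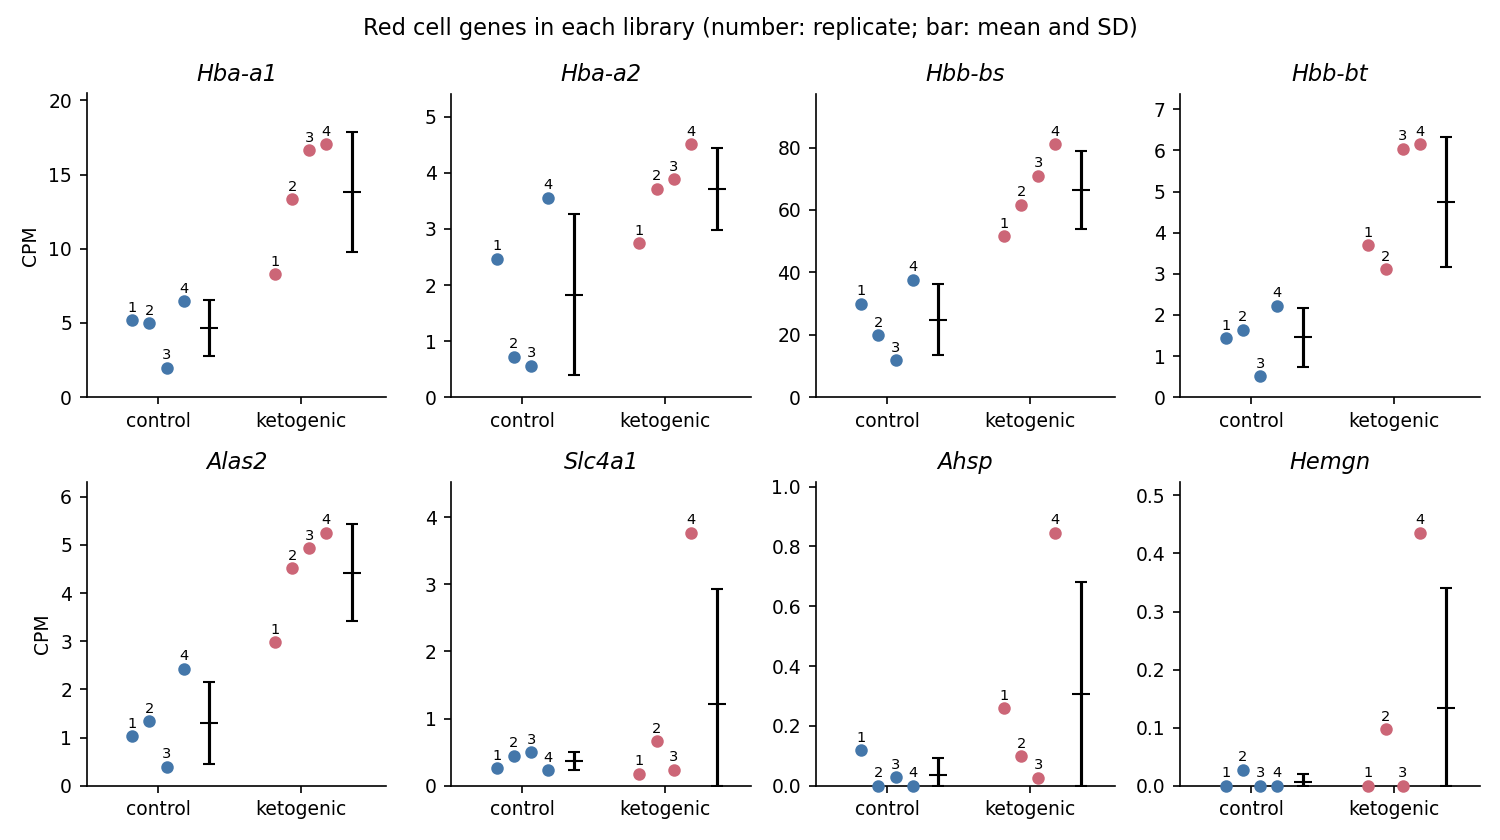
CPM of each of the 8 genes (vertical axes, each from 0) in control and ketogenic libraries, with the replicate number beside each point and the mean with its SD (cut at 0) at the right of each group. For Hba-a1, Hbb-bs, Hbb-bt and Alas2 every ketogenic point lies above every control point, and for Slc4a1, Ahsp and Hemgn ketogenic replicate 4 stands above the rest, at 3.77, 0.85 and 0.44 CPM.

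The share taken by the second copy of each pair varied between libraries. Hba-a2 took 25.6% ± 10.4 of alpha counts in control and 21.6% ± 2.47 in ketogenic libraries (SD, n = 4 each). The lowest share was 12.7% in control replicate 2 (26 Hba-a2 reads, exact 95% binomial interval 8.45% to 18.03%) and the highest 35.5% in control replicate 4 (30.8% to 40.5%). These intervals do not overlap, so the control libraries differed in this share by more than counting error, which is the only error the intervals cover. Hbb-bt took 5.46% ± 1.56 of beta counts in control and 6.60% ± 1.30 in ketogenic libraries. Its lowest and highest shares were 4.07% in control replicate 3 (2.43% to 6.36%) and 7.85% in ketogenic replicate 3 (6.90% to 8.89%).

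**Figure D2:**
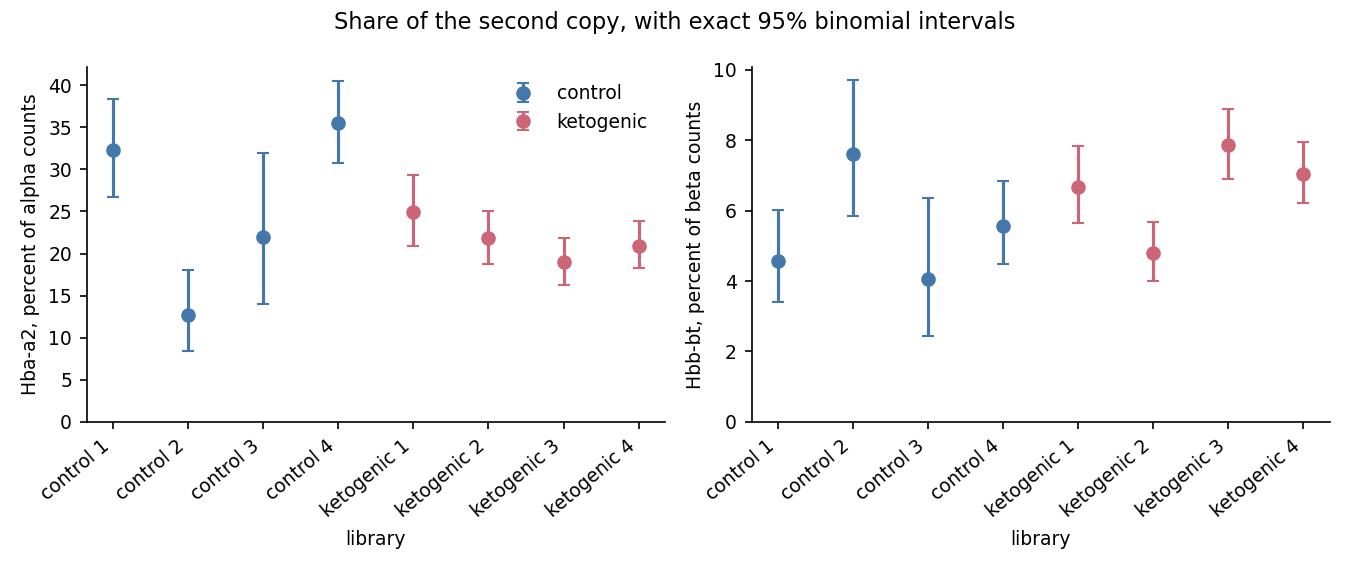
Share of alpha chain counts assigned to Hba-a2 (left) and of beta chain counts assigned to Hbb-bt (right), in percent, for each library, with exact 95% binomial intervals as bars. The 4 ketogenic shares of Hba-a2 lie between 18.9% and 24.9%, inside the control range of 12.7% to 35.5%.

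Per gene length, the beta chains had more assigned reads than the alpha chains in every library. How reads matching both copies were counted is unknown and could alter this ratio. The ratio of summed beta to summed alpha FPKM was 3.67 ± 0.41 in control and 3.64 ± 0.52 in ketogenic libraries (SD, n = 4 each), with all 8 libraries between 3.29 and 4.41. Hbb-bs alone made up 74.1% ± 2.80 of summed hemoglobin FPKM in control and 73.0% ± 2.24 in ketogenic libraries. In FPKM, the ketogenic means were 104 for Hbb-bs, 24.8 for Hba-a1, 7.55 for Hbb-bt, 6.62 for Hba-a2, 2.20 for Alas2, 0.63 for Ahsp, 0.27 for Slc4a1 and 0.059 for Hemgn. The control means ran in a similar order, from 38.9 FPKM for Hbb-bs to 0.0030 for Hemgn. Hbb-bt and Hba-a2 lie within 1 SD of each other in both diets. So do Slc4a1 and Ahsp, whose ketogenic SDs, 0.39 and 0.77 FPKM, exceed their means.

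Other globins, a list of adult, embryonic and tissue forms, gave no calls. The adult beta chain symbols Hbb-b1 and Hbb-b2 are on this list but not in the table. Of 13 listed, 7 are in the table and 4 were tested, with 0 called in either direction by edgeR (0 at an unadjusted p under 0.05, and 0 with DESeq2 or limma-voom). Cygb (cytoglobin) had 70.2 ± 2.11 CPM on the control diet and 77.4 ± 8.11 CPM on the ketogenic diet. Ngb (neuroglobin, of neurons) had 8.62 ± 1.27 and 10.5 ± 3.55 CPM. The embryonic beta-like gene Hbb-y had 0 to 2 reads per library.

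Alas2, the erythroid form of the first enzyme of heme synthesis, followed the hemoglobin chains. The gene lies at chrX:150547375-150570638 on the plus strand. It was at 1.03, 1.33, 0.39 and 2.43 CPM in control replicates 1 to 4 and at 2.98, 4.52, 4.93 and 5.26 CPM in ketogenic replicates 1 to 4. As with Hbb-bs, control replicate 3 was lowest, control replicate 4 was the highest control and ketogenic replicate 4 the highest of all. The log2 change was 1.76 ± 0.36 (edgeR adjusted p = 0.0164), with no overlap between diets. It missed the threshold without control replicate 1 (adjusted p = 0.0687) and without control replicate 2 (0.0513).

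The number of hemoglobin reads per Alas2 read was 20.2 ± 1.77 in ketogenic libraries, with a range of 18.1 to 22.3. In control it was 37.97, 20.4, 38.1 and 20.5 in replicates 1 to 4. Control replicates 2 and 4 therefore lay within the ketogenic range, and control replicates 1 and 3, with 35 and 14 Alas2 reads, lay above it. The ubiquitous form of the enzyme, Alas1, had 59.1 ± 3.19 CPM on the control diet and 59.5 ± 2.92 CPM on the ketogenic diet, with a log2 change of 0.0084 ± 0.062.

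Slc4a1 did not follow hemoglobin from library to library, and Ahsp and Hemgn had too few reads to tell. Slc4a1, which encodes band 3, the anion exchanger of the red cell membrane, lies at chr11:102348824-102366203 on the minus strand. It had 9, 16, 18 and 9 reads in control replicates 1 to 4 and 7, 27, 9 and 147 reads in ketogenic replicates 1 to 4. Ketogenic replicate 4 alone held 60.7% of all Slc4a1 reads (exact 95% binomial interval 54.3% to 66.9%), while ketogenic replicate 1 lay under the control range in CPM and ketogenic replicate 3 near its lower end. In CPM the means were 0.36 ± 0.13 and 1.21 ± 1.72. The log2 change was 1.74 ± 0.76 (edgeR adjusted p = 0.169) and was 0.0087 without ketogenic replicate 4 (adjusted p = 0.995).

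Ahsp, the chaperone that binds free alpha chains until they meet beta chains, had 4, 0, 1 and 0 reads in control and 10, 4, 1 and 33 reads in ketogenic replicates 1 to 4. Hemgn, a nuclear protein of blood cell precursors at chr4:46393989-46413506 on the minus strand, had 0, 1, 0 and 0 reads in control and 0, 4, 0 and 17 in ketogenic replicates 1 to 4. Both were under edgeR's count filter and were not tested. Ketogenic replicate 4 held 62.3% of all Ahsp reads (47.9% to 75.2%) and 77.3% of all Hemgn reads (54.6% to 92.2%, exact 95% binomial intervals). A count of 0 allows up to 3 reads, which is 0.073 to 0.088 CPM in these libraries, so lower levels were not detectable at this depth.

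**Figure D3:**
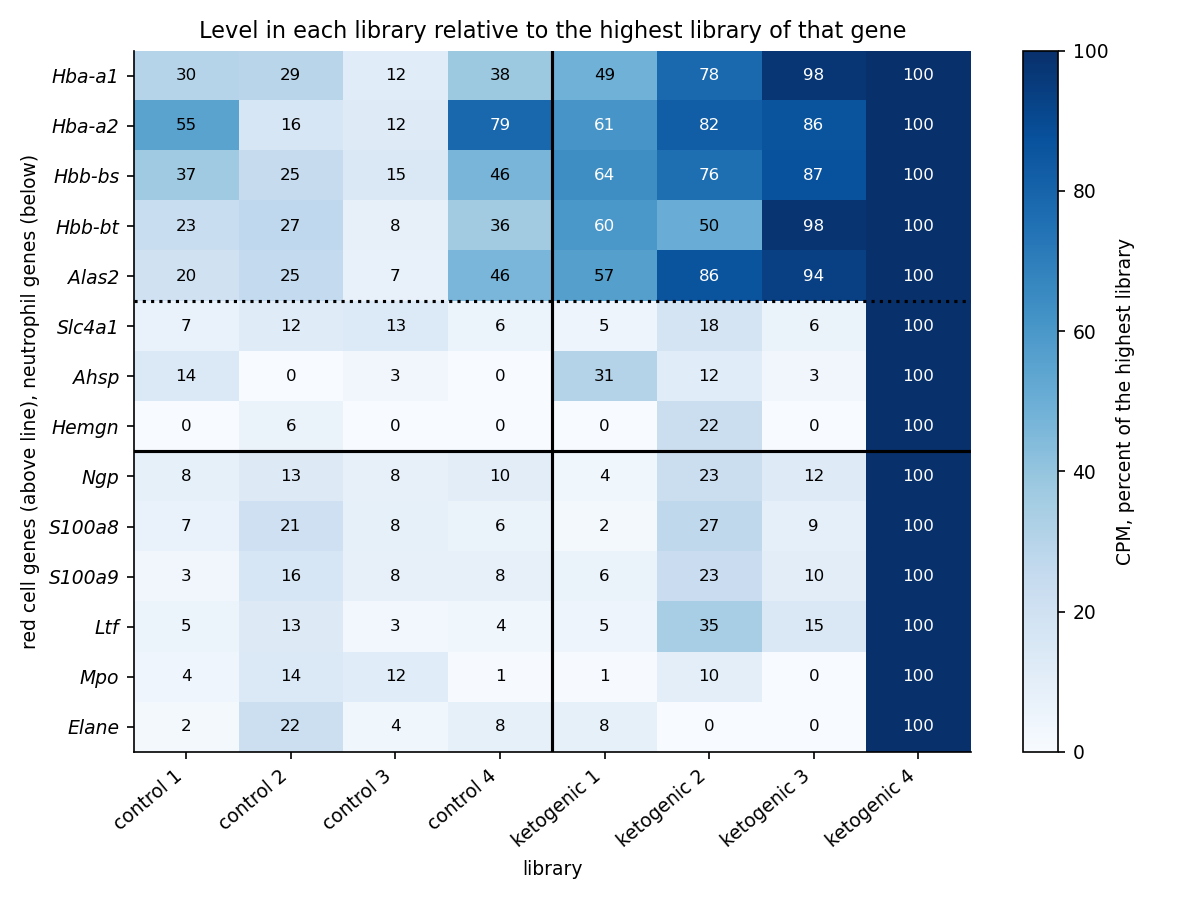
CPM of each gene in each library as a percentage of that gene's highest library (colour and number). The rows are the 8 red cell genes and, below the solid line, 6 of the 14 neutrophil markers. Of all 14, 12 were highest in ketogenic replicate 4, and Csf3r and Stfa2l1, which are not shown, were not. For the hemoglobin chains and Alas2, above the dotted line, every ketogenic library is above every control library, except for Hba-a2. There control replicate 4 exceeds ketogenic replicate 1. Every gene shown, above and below the dotted line, is highest in ketogenic replicate 4.

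Of the 8 members, 6 passed the count filter, and 4 of these were called higher (Hba-a1, Hbb-bs, Hbb-bt and Alas2) and 0 lower, beside 3.3% of all tested genes called higher. The median log2 change of these 6 was 1.64, beside -0.0029 for all tested genes. A member that passes the filter through its ketogenic libraries has a high change by construction, and the list was chosen with the diet results known, so nothing is read from this count. All 6 tested members were at least 2-fold higher by the fitted change, as were 0.577% of tested genes, and 0.0873% of tested genes were also called.

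The same libraries ordered the chains and Alas2. Control replicate 3 was the lowest and ketogenic replicate 4 the highest of 8 for all 5 genes, and control replicate 4 was the highest control for all 5. Slc4a1 had control replicate 3 as its highest control and ketogenic replicate 1 as its lowest library. Relative to summed hemoglobin, Slc4a1, Ahsp and Hemgn together were lowest in ketogenic replicate 3, at 10 reads beside 3662 hemoglobin reads, and highest in ketogenic replicate 4, at 197 beside 4244. The log2 ratio of hemoglobin to the 3 genes was 6.27 ± 1.25 in control and 6.69 ± 1.71 in ketogenic libraries (SD, n = 4 each), a difference smaller than either SD. Against Alas2 alone it was 4.80 ± 0.52 and 4.33 ± 0.13.

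**Figure D4:**
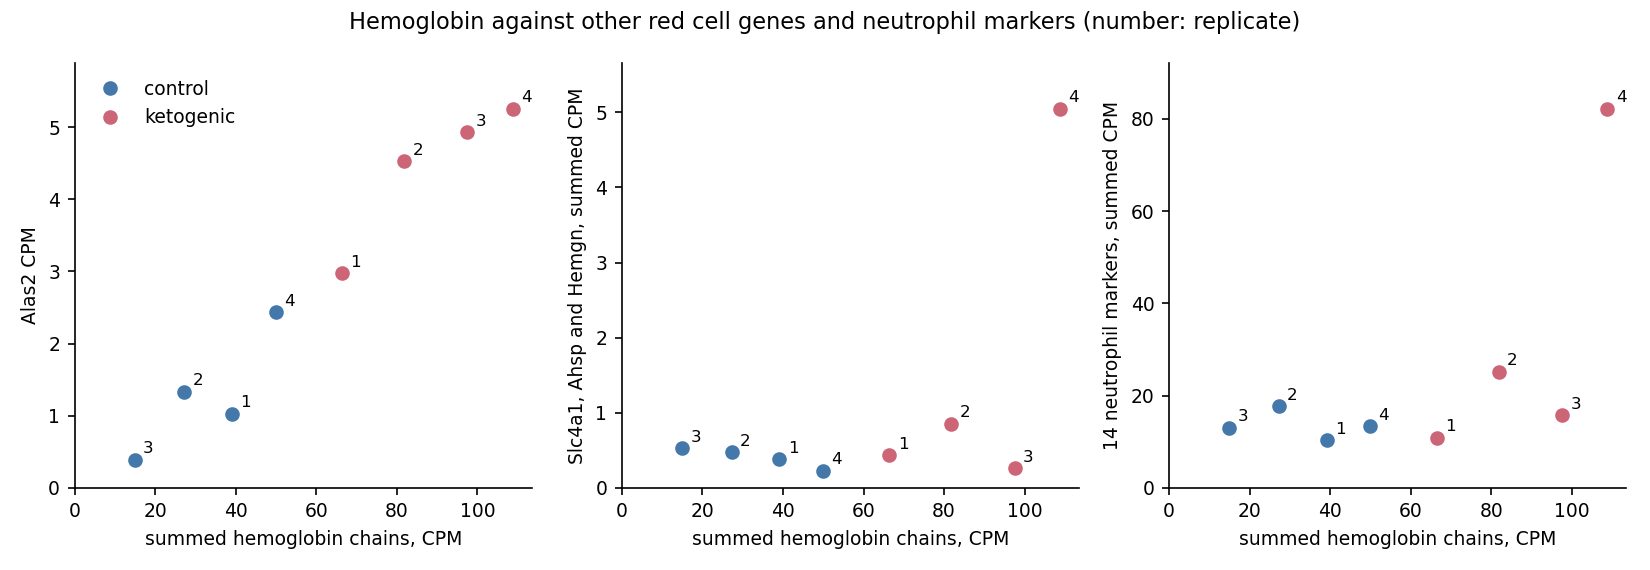
Summed CPM of the 4 hemoglobin chains (horizontal axis) against Alas2 CPM, the summed CPM of Slc4a1, Ahsp and Hemgn, and the summed CPM of 14 neutrophil markers (vertical axes), 1 point per library with its replicate number. Alas2 climbs with hemoglobin through both diets, while on the other 2 axes ketogenic replicate 4 lies apart, at 5.05 and 82.3 CPM.

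The spread of these genes within a diet was wide. On the log2 CPM scale, Hbb-bs had an SD of 0.73 in control and 0.28 in ketogenic libraries, and Hba-a2 of 1.26 and 0.30, where the median tested gene had 0.13 and 0.12. The pooled SD within diets of Hbb-bs was larger than that of 92.2% of tested genes, and that of Slc4a1 larger than that of 99.7%. The 4 chain genes and Alas2 all spread more among control than among ketogenic libraries, and Slc4a1 the other way, with 0.48 against 1.83.

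**Figure D5:**
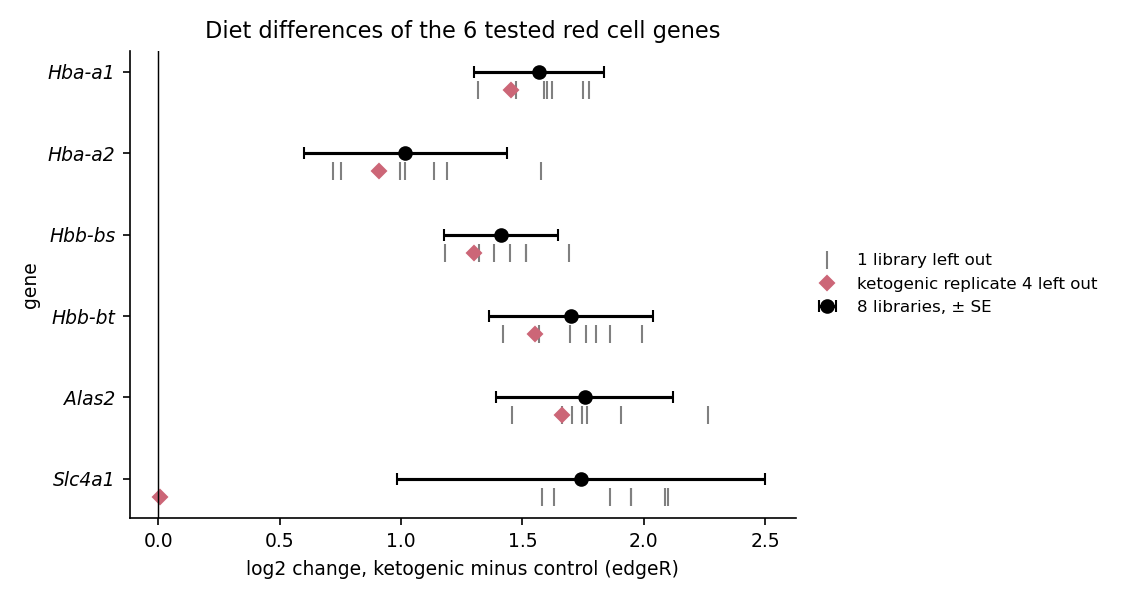
Log2 change of ketogenic against control from edgeR (horizontal axis) for the 6 tested genes, with its SE (black), and the same with 1 library left out (grey marks, with ketogenic replicate 4 as diamonds). The values of the chains and Alas2 without ketogenic replicate 4 lie at 0.91 to 1.66, and that of Slc4a1 at 0.0087.

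Markers of neutrophils, the granule-bearing white cells of blood and marrow, stood out in the same library as Slc4a1, Ahsp and Hemgn. Of 14 markers, 12 had their highest CPM in ketogenic replicate 4, where 13.5% of all genes in the table did. Their summed level was 10.4 to 17.8 CPM in control, 10.9, 25.2 and 15.8 CPM in ketogenic replicates 1 to 3, and 82.3 CPM in ketogenic replicate 4. Ngp (a granule protein of maturing neutrophils) had 944 reads there and 35 to 224 in the other 7 libraries. Mpo (myeloperoxidase) had 142 against 0 to 18, and Elane (neutrophil elastase), a gene of granulocyte precursors, 60 against 0 to 12. Of the 10 tested, Ltf (lactoferrin) was called higher (log2 change 2.63 ± 0.69, edgeR adjusted p = 0.0363), but limma-voom called 0 (adjusted p = 0.185 for Ltf) and DESeq2 gave Ltf no adjusted p. With 1 library left out, 3 were called without ketogenic replicate 1 or 3, and 0 without any other single library. The median log2 change of the 10 was 1.76, and 0.45 without that library. Oligodendrocyte markers also had their highest CPM there for 8 of 10 genes, with a summed level of 6738 CPM beside 5105 to 5806 in the other 7 libraries. Ketogenic replicate 4 was the highest library for summed hemoglobin (109 CPM) as well as for summed neutrophil markers (82.3 CPM). Ketogenic replicate 1 had 66.4 CPM of hemoglobin with 10.9 CPM of neutrophil markers, and control replicate 2 had 27.3 with 17.8. Csf3r, 1 of the 14 markers, varied little, at 3.84 to 5.12 CPM in control and 4.11 to 5.75 CPM in ketogenic libraries. The part of these cells in the members' values was not tested.

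Other genes of the red cell membrane were mixed. Of 22 listed, 21 are in the table and 14 were tested, with 1 called higher (Slc2a1, the glucose transporter shared by red cells and brain vessels, log2 change 0.37 ± 0.073, edgeR adjusted p = 0.013, and 0.0612 without control replicate 1) and 0 lower. The list's median log2 change was -0.01. Its most abundant members are also brain genes: Sptb, Dmtn and Add2, of the membrane skeleton, had log2 changes of 0.16 ± 0.056, -0.037 ± 0.058 and 0.16 ± 0.057, and missed the threshold. Epb42 (a membrane protein that binds band 3), named after its values were seen, had 31 reads in ketogenic replicate 4 and 0 to 6 elsewhere. In all, 11 of the 21 were highest in ketogenic replicate 4.

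Red cell enzymes and genes of late maturation had 0 of 18 tested members called higher and 1 lower, with a median of 0.07. The member that fell was Cat (catalase, which breaks down hydrogen peroxide), from 70.3 ± 7.51 to 57.2 ± 3.96 CPM (log2 change -0.30 ± 0.08, edgeR adjusted p = 0.0349). Without any 1 of control or ketogenic replicates 1 to 3 it missed the threshold (0.0537 to 0.119). Prdx2, an abundant red cell peroxiredoxin that neurons also express, changed by 0.18 ± 0.058 on the log2 scale, short of the threshold.

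Heme synthesis and heme transport had 22 tested genes with 1 called, Alas2 itself, higher. The median was 0.04. Fech, which puts iron into heme, had a log2 change of -0.17 ± 0.07 and Urod, an earlier enzyme, of 0.09 ± 0.07, and neither passed.

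Transcription factors and cytokine receptors of the red cell line had 1 of 15 tested members higher and 0 lower, with a median of 0.08. The called gene was Epor, the erythropoietin receptor, which rose from 5.86 ± 0.47 to 8.14 ± 1.11 CPM with no overlap (log2 change 0.47 ± 0.14, edgeR adjusted p = 0.0473). That call was lost with limma-voom (adjusted p = 0.0608) and without any 1 of control or ketogenic replicates 1 to 3 (0.0911 to 0.121). The defining erythroid factors were near 0: Gata1 had 0 to 4 reads and Klf1 0 to 11 reads per library. Kit, the stem cell factor receptor, which brain cells also express, had a log2 change of 0.18 ± 0.057, short of the threshold.

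Summed levels of other blood cells, vessels and choroid plexus overlapped between diets. For scale, 3659 of all 14895 genes tested had an unadjusted p under 0.05 with edgeR, and DESeq2 called 1774. Summed CPM was 10.9 to 12.2 in control and 11.4 to 14.4 in ketogenic libraries for 11 platelet markers, with 0 of 5 tested called by edgeR (1 at an unadjusted p under 0.05, and 0 with DESeq2). For 12 lymphocyte markers it was 13.1 to 14.9 and 12.8 to 14.3, with 0 of 2 tested called by edgeR (0 at an unadjusted p under 0.05). Cd3d, a defining T cell gene, had 0 to 1 reads. For 18 endothelial and mural markers it was 371 to 474 and 388 to 432, with 1 called higher (Esam, an adhesion protein) and 1 lower (Rgs5, of pericytes), and both calls were lost without some single libraries, such as control replicate 1 (adjusted p = 0.095 and 0.0955). Choroid plexus markers, dominated by Ttr (transthyretin), were at 608 to 1166 CPM in control and 1088 to 1400 in ketogenic libraries, with 0 of 10 called by edgeR (5 at an unadjusted p under 0.05, and 1 with DESeq2). Their median log2 change was 0.38, which, as for hemoglobin, lies toward the ketogenic diet. Their sums were made up mostly of Ttr, and the libraries ranked differently by these sums than by summed hemoglobin. Control replicate 3, for example, was the highest control for the choroid plexus sum and the lowest for hemoglobin. The part of these cells in the members' values was not tested. Of 10 genes tested for each brain cell type, the counts called higher and lower were 0 and 0 for neurons, 1 and 4 for astrocytes, 0 and 2 for oligodendrocytes, and 1 and 0 for microglia.

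The genes with the pattern most like summed hemoglobin over the 8 libraries were not red cell genes. Among 13522 other tested genes with a mean CPM of at least 1, the highest Pearson r of log2 CPM with log2 summed hemoglobin was 0.98 for Aars2 (a mitochondrial alanyl-tRNA synthetase). It was followed by Qrsl1 (a subunit of the mitochondrial glutaminyl-tRNA amidotransferase) at 0.97, Gsn (gelsolin, an actin-severing protein) at 0.96 and Ptdss2 (a phosphatidylserine synthase), Acadvl (a fatty acid oxidation enzyme), Wdr24, St6galnac4, Lrfn1, A4galt and Dda1 at 0.95 to 0.96. For comparison, Alas2 had 0.97, and 2 of these genes had a higher r. Slc4a1 had 0.27, and 4666 had a higher r. The likeness is of shape and not of size: Aars2 and Qrsl1 had log2 changes of 0.26 and 0.29, neither past the threshold. With each diet's mean removed, Qrsl1 had the highest r of the 13522, at 0.98. Aars2 then had 0.93, with 18 genes above it, and Alas2 had 0.91. These coefficients describe 8 libraries that share the diet difference and were picked from many genes.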

How the data were processed

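The authors deposited raw counts per gene symbol (whole numbers) and FPKM values for the same 8 libraries. For the members, deposited FPKM follow from the counts, the library totals and a single length for each gene. The submitters' processing notes give GRCm38 and mm10 as builds. No aligner, counting program, strand setting or annotation is given in the sources used here. Per the labels' protocols, libraries were made from 1.3 ug of total RNA with a SMARTer messenger RNA kit.

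Diets were compared with edgeR 4.0.16 (R 4.3.3): TMM factors, filterByExpr, the quasi-likelihood F test with an intercept and the diet, and Benjamini-Hochberg adjustment over 14895 genes (3088 left out), called at 0.05. SE is the log2 change divided by the square root of F. The script was tested on simulated data. Alternatives used DESeq2 1.42.0, limma 3.58.1, other scalings, filters and pseudocounts (1 and 0.1), a threshold of 0.1, the replicate number as a block, and each library left out. Intervals are Clopper-Pearson at 95%.

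The members and the 16 other lists were chosen with earlier results of these data known. Named genes are the members, the 4 tested genes of highest mean FPKM and up to 4 called genes of smallest p in each list (not all are printed), and the 10 genes most like hemoglobin in log2 CPM (prior count 2); other genes named, such as Epb42, Mpo, Elane and the markers near 0, were chosen after their values were seen. Coordinates are GENCODE M21 on GRCm38, found for 7 of 8 members. Some genes of these lists are not reported here.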

Additional observations from a re-analysis of the deposited data

Results flagged for a closer look

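Slc4a1 in the ketogenic group was flagged because 1 library lay far from the other 3: ketogenic replicate 4 had 3.77 CPM and the next highest, ketogenic replicate 2, had 0.66 CPM. The gap was 0.87 of the group's whole range, above Dixon's 95% critical value for 4 libraries.

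Hemgn in the control group was flagged because control replicate 2 had 0.028 CPM, which is 1 read, while the other 3 control libraries had 0. A single read is under the 3 reads that a count of 0 allows. In all, 23 quantities were examined in each of 2 diets, or 46 groups, of which chance flags about 1 in 20.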

How the results depend on the processing

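The log2 changes of Hba-a1, Hba-a2, Hbb-bs, Hbb-bt, Alas2 and Slc4a1 were above 0 under each of the 19 alternatives to the fit that gave them a value, and 0 members were called lower under any. The number of members called higher was 0 with limma on unfiltered log2(FPKM + 1) or log2(FPKM + 0.1), where the calls of Hba-a1, Hbb-bs, Hbb-bt and Alas2 were at adjusted p of 0.0589 to 0.0714. It was 2 to 5 with 1 library left out (2 without control replicate 1, 5 without control replicate 4) and 4 under the other alternatives, save 5 with the replicate block. Over all genes the number called was 971, and it was 146 to 1900 with 1 library left out, 1774 with the DESeq2 Wald test, 64 and 88 with unfiltered log2(FPKM + 1) and log2(FPKM + 0.1), and 2009 at a threshold of 0.1. With the replicate number as a block it was 1528, Hba-a2 passed (adjusted p = 0.0469), and 2 choroid plexus markers were called. Deviations from the diet means correlated at 0.022 to 0.076 between same-numbered libraries and at -0.090 to 0.085 between libraries of different number. The labels do not say whether same-numbered libraries share more than a number, and these correlations do not decide it. With 1 library left out, the calls numbered 0 to 4 among red cell membrane genes, 0 to 6 among red cell enzymes, 0 to 3 in heme synthesis, 0 to 1 among erythroid factors and receptors, 0 to 2 among iron genes and 0 to 3 among hypoxia-induced genes. The causes were not tested.

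The mean over libraries of log2 summed hemoglobin differed by 1.55 between the diets, and by 1.21 to 1.79 over its 11 alternatives. The log2 ratio of hemoglobin to the other 4 members summed was -0.28 (ketogenic minus control). It was 0.20 with the mean of log2 CPM (plus 0.05) over the 4, and 0.42 against Slc4a1, Ahsp and Hemgn, an alternative chosen after seeing the data, so its direction depends on which red cell genes stand for the rest. Leaving out 1 library gave -0.39 to -0.091. Depth limits Ahsp and Hemgn, with 5 and 1 control reads in all.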

Other observations

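Genes of hemoglobin and heme uptake, heme breakdown or iron handling had 0 of 22 tested members called either way (edgeR adjusted p under 0.05). Of the 22, 8 had an unadjusted p under 0.05, beside 3659 of all 14895 genes tested. DESeq2 called 2 of them, beside 1774 over all genes. Their median log2 change was 0.03. Ftl1 and Fth1, the chains of the iron store ferritin, had log2 changes of 0.18 ± 0.05 and 0.13 ± 0.07. Ftl1 did not overlap between diets, with 204 ± 11.2 CPM on the control diet and 231 ± 9.75 CPM on the ketogenic diet (SD, n = 4 each), and had an adjusted p of 0.0614. Trf (transferrin) had a log2 change of 0.09 ± 0.09.

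Hypoxia-induced genes had 1 of 18 tested members higher, Slc2a1, and 0 lower, with a median of 0.09. Bnip3 and Ndrg1, induced by low oxygen in many tissues, had log2 changes of -0.13 ± 0.06 and -0.07 ± 0.09, and Higd1a of 0.14 ± 0.06, none past the threshold.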
